A study of Mus musculus with 9 samples.

Results

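Duodenal organoids given extra HIF1 (Ad-hHIF1) were compared with organoids given green fluorescent protein (Ad-GFP), 3 samples a group, which are 6 of the 9 samples of the series. Members were taken by the labelled transduction, Adeno-HhHIF1 or Adeno-GFP. The organoids were grown from duodenal crypts of wild-type C57BL/6 mice in Matrigel, in conditioned medium of L-WRN cells, which supplies Wnt3a, R-spondin 3 and noggin, at 5% oxygen. They were dissociated to single intestinal stem cells, transduced at 50 viral particles per cell, and harvested about 72 h later. Both groups therefore carried an adenoviral vector, with a cytomegalovirus promoter in the case of Ad-GFP, and the Ad-hHIF1 vector encoded human HIF1 whose proline-to-alanine substitutions keep the VHL ubiquitin ligase from degrading it. The transduced share of the cells was not part of these data, so that less response per cell and fewer responding cells cannot be told apart. The remaining 3 samples received human HIF2 (Ad-hHIF2) and are used here only where HIF1 and HIF2 are set side by side. The study calls its Ad-GFP and Ad-hHIF2 libraries biological replicates, but nothing in the sources used here says whether the Ad-hHIF1 replicates, or any of the numbered replicates (1, 3 and 4), came from separate animals, so that p-values measure only the spread between these samples, which may be technical.

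HIF1 is a transcription factor made of an oxygen-regulated α subunit (Hif1a) and a constitutive partner, ARNT. In oxygenated cells prolyl hydroxylases of the EGLN family mark the α subunit for destruction through VHL. When oxygen is short the dimer binds short DNA elements with the core ACGTG or GCGTG and turns on genes for glycolysis, lactate export, glycogen storage, vessel growth and the hydroxylases themselves. In the intestine, HIF1 and its paralog HIF2 (Epas1) are known for supporting epithelial barrier function, and HIF2 for control of iron uptake.

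RNA levels are given as CPM, that is, expected read counts scaled to the TMM-adjusted library size. Values of a group stand in the order replicate 1, 3 and 4. Total counts ran from 21722618 to 39763093 per sample. Of 14 epithelial and duodenal marker genes, 13 exceeded 1 CPM in every sample and summed to between 3224 and 3710 CPM, with overlapping groups, although the median over these genes of log2 CPM minus the Ad-GFP mean was 0.10, 0.11 and 0.11 in the Ad-hHIF1 samples against at most 0.05 in the Ad-GFP samples. Immune markers summed to 15.4 to 27.1 CPM, endothelial markers to 3.90 to 7.23 CPM and fibroblast and mesenchymal markers, of which 5 of 12 exceeded 1 CPM, to 967 to 1099 CPM, with the Ad-GFP samples (from 1072) above the Ad-hHIF1 samples (up to 1058). Vim, vimentin, which cultured epithelial cells can also express, made up 954 to 1080 CPM of that sum, while the fibroblast collagens Col1a1, Col1a2 and Col3a1 lay between 1.34 and 6.48 CPM. Ad-hHIF1 replicate 3 stood apart from the other 5 samples. Of its counts, 16.0% fell on the predicted genes Gm10800 and Gm26870, against 1.15% to 4.28% elsewhere. Its nerve and glial markers summed to 42.5 CPM against 9.22 to 18.2. In the same sample 1858 receptor genes, taken as silent in this tissue, summed to 424.4 CPM against 62.68 to 159.4 elsewhere. Of these receptor genes, 376 had a count in that sample, within the 160 to 446 of the other samples. The source of these reads was not tested. Ad-GFP replicate 4 had the lowest mitochondrial share, 2.27% against 3.98% to 4.71%. Protein-coding genes took 41.7% to 43.0% of the counts in the Ad-GFP samples and 46.0% to 49.4% in the Ad-hHIF1 samples. The groups did not overlap in this share, and the part of these values in the results below was not tested.

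Reads of Hif1a itself were higher in every Ad-hHIF1 sample. Hif1a (ENSMUSG00000021109, chr12:73901375-73947530, plus strand, GRCm38) was at 188.1, 199.9 and 239.6 CPM in the Ad-GFP samples, a mean of 209.2 ± 27.0 (SD, n = 3), and at 293.1, 303.6 and 286.1 CPM in the Ad-hHIF1 samples, a mean of 294.3 ± 8.80 (SD, n = 3). The difference was 0.49 on the log2 scale (SE 0.10, 95% interval 0.25 to 0.73), and the quasi-likelihood test of edgeR gave it an adjusted p of 0.486. Permuting the 6 samples exactly (two-sided) gave p = 0.10, the smallest value that 3 against 3 allows. Epas1 lay between 1.40 and 2.92 CPM in all 6 samples, with overlapping groups. Arnt lay between 49.9 and 51.6 CPM in the Ad-hHIF1 samples against 52.2 to 54.1 in the Ad-GFP samples, a log2 difference of -0.07 (95% interval -0.21 to 0.08) whose sign turned under total-count and TPM scaling. The vectors carry human sequence and the reads were counted on mouse genes, and how far transgene reads were assigned to Hif1a was not tested. Mouse Epas1 stood 8.59 above Ad-GFP on the log2 scale (SE 0.29) in the Ad-hHIF2 samples.

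The response of the transcriptome to Ad-hHIF1 was small. Of 46517 annotated genes, 15233 had enough counts to test, and edgeR called 0 of them (0.0%) at an adjusted p below 0.05. No adjusted p was under 0.0789. Before adjustment 1308 genes (8.59%) had p below 0.05, 618 of them higher (4.06%) and 690 lower (4.53%). Other tools on the same samples called 144 genes (DESeq2), 5 (limma-voom), 12 (limma-voom with sample quality weights) and 7 (edgeR with a robust fit). The study, which used EBSeq, reported significant genes in both directions for this comparison. A fit over all 9 samples, in which the 3 groups share one estimate of the spread, called 7 of 15556 genes (0.045%): Kctd11, Atf3, Selenbp1, Sprr1a, Nos2 and Arhgap29 rose and Neat1 fell. In that fit without Ad-hHIF1 replicate 3, which stood apart, the adjusted p was 0.0619 for Sprr1a, 0.0963 for Arhgap29 and 0.155 for Neat1. These calls ended there, while the other 4 passed. With replicate number as a block in the edgeR fit over 9 samples, Sprr1a (adjusted p = 0.0274) and Nos2 (0.0404) passed. The other calls ended under that block, at 0.0994 for Kctd11, 0.08 for Atf3, 0.169 for Selenbp1 and 0.215 for Arhgap29 and Neat1.

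Consistency between samples can be described without a test. In 1275 genes (8.37%) all 3 Ad-hHIF1 values lay above all 3 Ad-GFP values, and in 1352 genes (8.88%) all lay below, together 2627 genes (17.2%). These shifts were modest, with a median absolute log2 difference of 0.29, and 2381 of the 2627 were smaller than 2-fold. The median gene had a 95% interval of ± 0.40 on the log2 scale, and for 10329 genes (67.8%) the interval excluded a change of 2-fold in either direction. Well-measured genes were separated more often: the groups did not overlap for 11.1% of the genes with a mean below 1 CPM and for 34.1% of those at 100 CPM or more. Of 777 genes at 100 CPM or more, 134 lay above and 131 below, and of 3738 at 20 to 100 CPM, 477 and 416. The all-gene shares set beside gene lists below were not matched for level and are low for lists of highly expressed genes. Among the genes that lay above, 95.6% were protein-coding, and among those below, 78.0%, beside 83.2% of all genes tested.

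The balance of higher and lower genes depended on the scaling. With total counts and no normalization factors, the median gene shifted by 0.08 on the log2 scale, the unadjusted split became 1102 higher and 168 lower, and 2011 genes lay above and 556 below. On the deposited TPM values the median gene shifted by 0.07 (pseudocount 1) or 0.16 (pseudocount 0.1), the split was 2150 to 78 or 2141 to 75, and 3014 genes lay above and 158 below. Medians of gene lists moved with the scaling too, for example that of the unfolded protein list from 0.16 to 0.24 with total counts and to 0.28 or 0.35 on the TPM values. All directions given here are relative to the TMM scale, on which the median of all genes was 0.001.

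**Figure D1:**
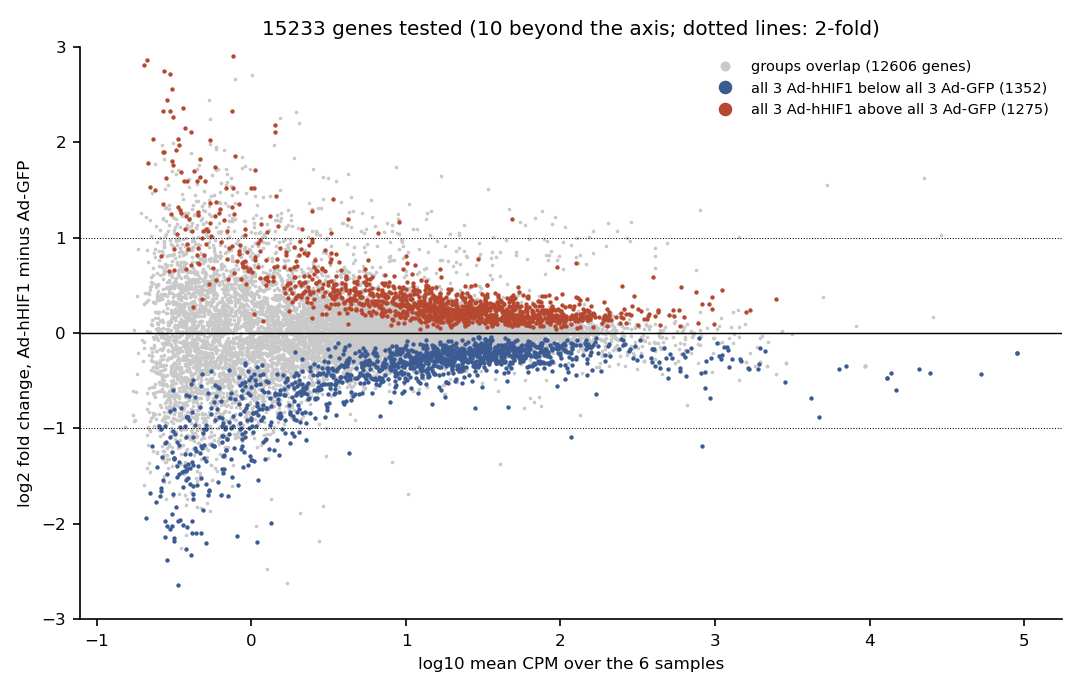
Each point is one of the 15233 genes tested, with the log10 mean CPM over the 6 samples on the x axis and the log2 fold change, Ad-hHIF1 minus Ad-GFP, on the y axis. Red points are the 1275 genes with all 3 Ad-hHIF1 samples above, blue points the 1352 with all below, and grey points overlap. Above 20 CPM nearly all coloured points lie inside the dotted 2-fold lines.

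The most separated higher genes were few and came from several functions. Kctd11, an adaptor of cullin 3 ubiquitin ligases, was at 20.2, 22.8 and 21.6 CPM in the Ad-GFP samples and at 36.2, 36.2 and 38.2 CPM in the Ad-hHIF1 samples. The Ad-hHIF1 values were tightly grouped and lay 1.72-fold above the controls (log2 0.78, SE 0.08, adjusted p = 0.0789 in the 6-sample edgeR fit and 0.0123 in the 9-sample fit). Atf3, a stress-induced transcription factor, was at 72.6, 73.2 and 71.7 CPM under Ad-GFP and at 112, 123 and 117 CPM under Ad-hHIF1. No gap between replicates of one group approached the gap between groups (log2 0.70, SE 0.07, edgeR adjusted p = 0.0789 and 0.0123 in the same fits). Kctd11 lies at chr11:69878261-69881406 (minus strand) and Atf3 at chr1:191170296-191218039 (minus strand) in GRCm38.

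Selenbp1, a methanethiol oxidase of differentiated epithelium, was at 101, 94.4 and 87.2 CPM in the controls and at 158, 144 and 167 CPM with HIF1 (log2 0.73, SE 0.09, edgeR adjusted p = 0.161, and 0.0233 in the 9-sample fit). Sprr1a, a cornified-envelope precursor that also marks the regenerating intestinal epithelium, was at 26.5, 25.1 and 36.7 CPM against 60.8, 67.5 and 72.9 CPM, 2.28-fold higher (log2 1.19, SE 0.15, edgeR adjusted p = 0.161, and 0.0357 over 9 samples). For both genes the groups were well apart, although Ad-GFP replicate 4 had the highest Sprr1a level of the controls. Nos2, the inducible nitric oxide synthase and a known hypoxia target, was lowly expressed, at 5.93, 5.69 and 4.91 CPM against 13.6, 10.4 and 13.3 CPM (log2 1.17, SE 0.15, edgeR adjusted p = 0.161, and 0.0123 over 9 samples). Arhgap29, a GTPase-activating protein, was at 27.8, 28.6 and 26.3 CPM against 37.0, 40.8 and 39.4 CPM (log2 0.50, SE 0.07, edgeR adjusted p = 0.207, and 0.0448 over 9 samples). Of the 22 alternative analyses other than the unfiltered one, Kctd11, Atf3 and Selenbp1 were called in 7, Sprr1a and Nos2 in 6, Neat1 in 5, Hmox1, described next, in 4 and Arhgap29 in 2.

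The remaining genes of this group also lay above in every Ad-hHIF1 sample. Hmox1, heme oxygenase 1, was at 326, 321 and 299 CPM against 473, 439 and 508 CPM (log2 0.59, SE 0.09, edgeR adjusted p = 0.207, but 1.25e-11 in DESeq2, 0.00905 in limma-voom with quality weights and 0.0243 in the robust edgeR fit). Every Ad-hHIF1 value of Hmox1 exceeded every control by more than 100 CPM. Phospho1, a phosphatase of phosphocholine and phosphoethanolamine, was 1.05 higher on the log2 scale (SE 0.16), Dhrs7, a short-chain dehydrogenase, 0.71 (SE 0.12), Ap4b1, a subunit of an adaptor complex, 0.68 (SE 0.12), Fam57a 0.67 (SE 0.10) and Sdf2l1, an endoplasmic reticulum chaperone cofactor, 0.37 (SE 0.07), with edgeR adjusted p between 0.195 and 0.486.

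**Figure D2:**
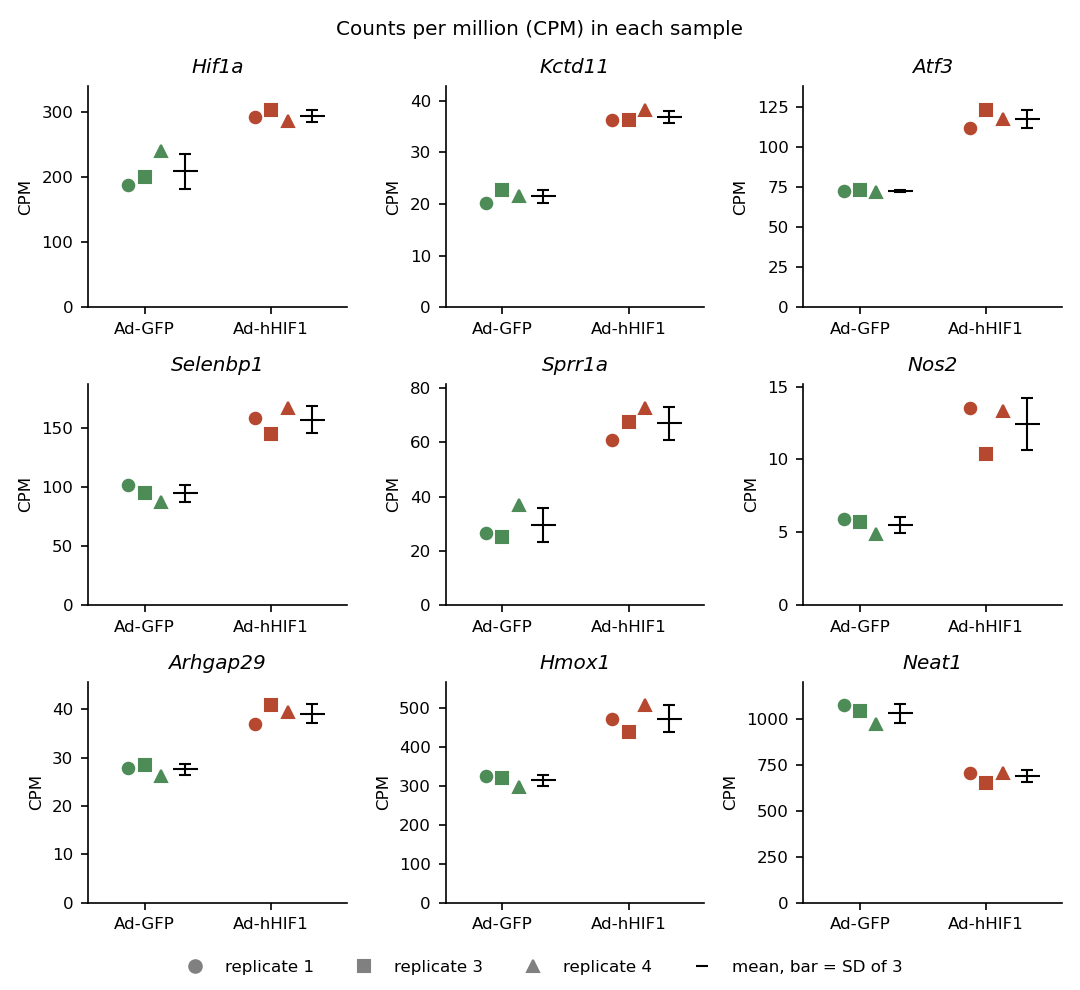
CPM of Hif1a, the 7 genes called in the 9-sample fit and Hmox1 in each sample (symbols are replicates; bars are the mean ± SD of 3), with each y axis starting at 0. In the 9 genes shown no Ad-hHIF1 sample reaches the range of the Ad-GFP samples, and Neat1 is the gene that lies lower.

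Promoters are shown for the 4 called genes whose 250 bases before the RefSeq start (GRCm38.p6) lie outside annotated exons except for up to 30 bases, to show what stands before the starts of genes that rose. Each runs 5′ to 3′ on the gene's strand and ends at the base before the start. Capitals mark matches, on both strands, to the HIF core (ACGTG or GCGTG, read as CACGT or CACGC on the other strand), to an AP-1 site (TGAGTCA or TGACTCA) and to the core of a cyclic AMP response element (TGACGT or ACGTCA), which may overlap a HIF core. Atf3 is at chr1:191183334-191183583 (minus strand), Selenbp1 at chr3:94932833-94933082 (plus strand), Sprr1a at chr3:92485882-92486131 (minus strand) and Arhgap29 at chr3:121952979-121953228 (plus strand). Kctd11, Nos2 and Neat1 are not shown.
Atf3: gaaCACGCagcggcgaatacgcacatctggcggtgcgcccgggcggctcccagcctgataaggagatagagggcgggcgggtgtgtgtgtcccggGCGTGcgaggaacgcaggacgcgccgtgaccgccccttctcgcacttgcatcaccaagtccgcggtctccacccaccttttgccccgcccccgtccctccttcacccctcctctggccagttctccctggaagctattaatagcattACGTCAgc
Selenbp1: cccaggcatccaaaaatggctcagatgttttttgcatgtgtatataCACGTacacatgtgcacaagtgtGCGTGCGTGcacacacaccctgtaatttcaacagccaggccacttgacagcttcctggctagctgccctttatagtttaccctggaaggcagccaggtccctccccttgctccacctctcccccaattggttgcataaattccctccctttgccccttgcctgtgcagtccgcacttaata
Sprr1a: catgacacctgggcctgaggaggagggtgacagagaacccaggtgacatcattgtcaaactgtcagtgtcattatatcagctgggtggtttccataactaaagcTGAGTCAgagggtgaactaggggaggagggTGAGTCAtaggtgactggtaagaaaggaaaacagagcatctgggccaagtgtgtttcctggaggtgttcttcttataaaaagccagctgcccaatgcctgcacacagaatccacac
Arhgap29: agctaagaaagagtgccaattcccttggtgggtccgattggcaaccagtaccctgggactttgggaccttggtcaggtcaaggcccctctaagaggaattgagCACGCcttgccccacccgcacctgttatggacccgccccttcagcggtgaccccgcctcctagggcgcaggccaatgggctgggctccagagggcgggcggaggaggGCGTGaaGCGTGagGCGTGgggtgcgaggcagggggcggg

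These stretches differed in what they held. Atf3 had 2 HIF cores and, just before the start, 1 cyclic AMP response element core, Selenbp1 had 3 HIF cores and Arhgap29 had 4, while Sprr1a had 2 AP-1 matches and 0 HIF cores. A further RefSeq start of Arhgap29 had 0 matches. Among all 32851 mouse promoter stretches of this length, 38.6% held at least 1 HIF core, 4.46% an AP-1 match and 6.47% a cyclic AMP response element core. Of the 10086 tested genes with such a stretch, 61.3% held a HIF core in at least 1 of theirs, 4.24% an AP-1 match and 11.6% a cyclic AMP response element core, so that HIF cores were common among expressed genes. A match describes letters only and says nothing of binding.

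Among the lower genes, the nuclear long non-coding RNA Neat1, the scaffold of paraspeckles, was the most separated. Neat1 (chr19:5824708-5845478, minus strand) was at 1076, 1047 and 974 CPM in the Ad-GFP samples and at 709, 654 and 708 CPM in the Ad-hHIF1 samples, a difference of -0.58 on the log2 scale (SE 0.08, edgeR adjusted p = 0.195, and 0.0424 in the 9-sample fit). On the TPM scale Neat1 differed by -0.18 or -0.20 (limma adjusted p = 0.607 and 0.613). The lowest control exceeded the highest Ad-hHIF1 sample by over 200 CPM. The 12 most separated lower protein-coding genes had log2 differences between -0.63 and -0.32 with edgeR adjusted p of 0.195 or 0.486, and these too were smaller on the TPM scale, from -0.27 (Tomm5) to -0.09 (Tagap1) with a pseudocount of 1 and from -0.40 (Clec2d) to -0.11 (Usmg5) with 0.1. Thbs1, thrombospondin 1, an extracellular matrix glycoprotein, was at 131, 118 and 130 CPM against 94.5, 94.2 and 98.3 CPM (log2 -0.40, SE 0.08). Fam193b was at 34.6, 36.7 and 39.1 CPM against 26.3, 23.9 and 24.4 CPM (log2 -0.56, SE 0.08).

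The other genes among those 12 came from several functions. Timm8b and Tomm5, parts of the mitochondrial protein import machinery, had log2 differences of -0.44 (SE 0.09) and -0.50 (SE 0.11), and Usmg5, a subunit of the ATP synthase, -0.35 (SE 0.07). Rbm3, a cold-inducible RNA-binding protein, differed by -0.34 (SE 0.07), Clec2d, a C-type lectin, by -0.63 (SE 0.12), Dtx3, a ubiquitin ligase of the Deltex family, by -0.43 (SE 0.09), Unc13a, a vesicle priming factor, by -0.40 (SE 0.08), and Ubald1, Tmem150a and Tagap1 by -0.50, -0.42 and -0.32. Classes of transcript length differed in direction, though not in one order. Of 294 protein-coding genes with an effective length under 500 bases, 16 (5.44%) lay above and 56 (19.0%) below, with a median log2 difference of -0.12, while in a class of 5124 longer genes (median effective length 2799 bases) 552 (10.8%) lay above and 377 (7.36%) below. In the longest class, 2456 genes with a median of 5138 bases, 218 (8.88%) lay above and 283 (11.5%) below, and the protein-coding genes that lay below had a longer median (2648 bases) than those that lay above (2452). The part of length in the lower genes was not tested.

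Canonical hypoxia targets outside glycolysis leaned upward by a small amount. Of 34 members tested, 15 (44.1%, beside 8.37% of all genes) lay above in every sample and 1 (2.94%, beside 8.88%) below. At an unadjusted p below 0.05 there were 11 higher (all genes 4.06%) and 1 lower. In the edgeR fit of the Ad-hHIF1 and Ad-GFP samples alone, 0 passed the adjusted threshold. Nos2 passed in the edgeR fit over all 9 samples (adjusted p = 0.0123). DESeq2 called further members, including Ero1l, Higd1a, Egln3 and Angptl4, which were higher, and Cited2, which was lower. The median log2 difference was 0.16, beside 0.001 for all genes. Leaving out Ad-hHIF1 replicate 3 gave 0.17 and leaving out Ad-GFP replicate 4 gave 0.10. The sample medians of the list relative to the control mean were 0.17, 0.16 and 0.17 in the Ad-hHIF1 samples and 0.03, 0.03 and -0.02 in the Ad-GFP samples.

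Nos2 and Hmox1 apart, further members were also higher in every Ad-hHIF1 sample. Ero1l, the oxidase that drives disulfide formation in the endoplasmic reticulum, was at 520, 526 and 455 CPM against 719, 694 and 679 CPM (log2 0.48, SE 0.09, edgeR adjusted p = 0.486). Its groups did not overlap. Higd1a, a regulator of mitochondrial respiration, differed by 0.40 (SE 0.09), Egln3, a HIF prolyl hydroxylase, by 0.37 (SE 0.09), Angptl4, an inhibitor of lipoprotein lipase, by 0.28 (SE 0.09) and Plod2, a lysyl hydroxylase of collagen, by 0.24 (SE 0.06), each above in 3 of 3 samples.

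The classical targets Vegfa and Car9 had overlapping groups, and Cited2 lay lower. Vegfa, the vascular growth factor, was at 876, 813 and 817 CPM against 778, 699 and 816 CPM, a log2 difference of -0.13 with a 95% interval of -0.33 to 0.08, which turned to 0.05 on the TPM scale. Car9, the hypoxia-induced carbonic anhydrase, was near 1 CPM in all samples (0.75 to 1.33), and its interval of -1.03 to 0.83 allowed close to a 2-fold change either way. Cited2, which competes with HIF1 for its coactivators, was the member that lay below, at 90.6, 87.5 and 104 CPM against 76.4, 75.5 and 76.7 CPM (log2 -0.30, SE 0.08, edgeR adjusted p = 0.491).

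The oxygen-sensing list was smaller and was not independent of the hypoxia list or of the vector. Of 9 members tested, 5 lay above (Hif1a, Egln3, Vhl, Egln1 and Hif1an, the last being the asparaginyl hydroxylase that blocks coactivator binding) and 1, Arnt, below, which is 55.6% above and 11.1% below, beside 8.37% and 8.88% of all genes. The median log2 difference was 0.25, or 0.16 without Ad-GFP replicate 3, and was the estimate of Epas1, whose groups overlapped and whose sign turned without Ad-hHIF1 replicate 3 (-0.11). Egln1 and Egln3 stand in both lists, and Hif1a is the gene whose human form the vector carries. These members are therefore not separate support. Vhl, the substrate receptor that captures hydroxylated HIF, was at 9.24, 9.69 and 6.82 CPM against 10.8, 14.6 and 14.4 CPM (log2 0.62, SE 0.17, edgeR adjusted p = 0.491). Egln1, the main HIF prolyl hydroxylase, was at 153, 147 and 91.6 CPM against 164, 167 and 171 CPM, and its separation rested partly on the low Ad-GFP replicate 4: the log2 difference was 0.36 with all samples and 0.16 without that sample.

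**Figure D3:**
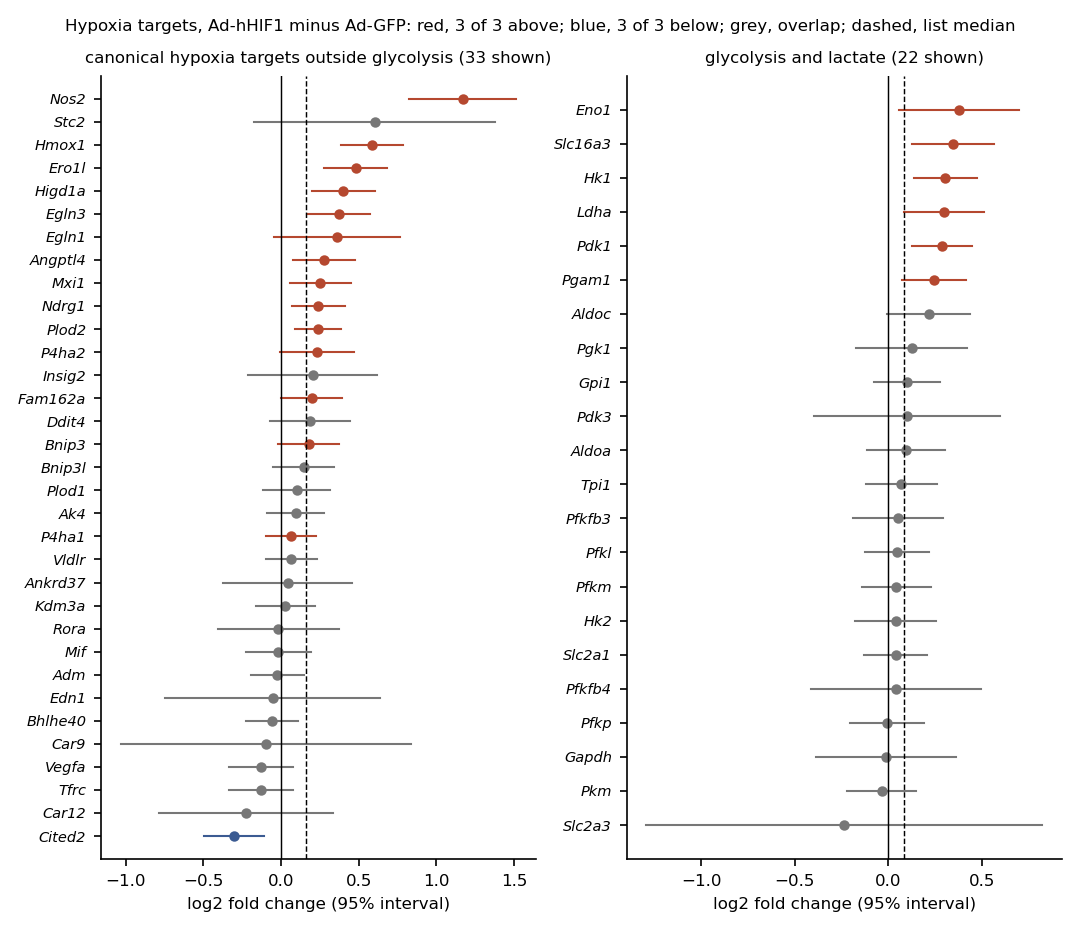
Log2 fold change, Ad-hHIF1 minus Ad-GFP, with its 95% interval for 33 of the 34 tested canonical hypoxia targets outside glycolysis (left) and the 22 tested genes of glycolysis and lactate (right). Red genes lay above in 3 of 3 samples, blue below, grey overlap, and the dashed lines mark the medians of all 34 and all 22 tested members, 0.16 and 0.08. Nos2 is the only member whose estimate exceeds 2-fold.

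Glycolytic genes were higher in part of the pathway. Of 22 tested, 6 (27.3%, beside 8.37% of all genes) lay above in every sample and 0 (beside 8.88%) below, the same 6 had an unadjusted p below 0.05 (all genes 4.06% higher and 4.53% lower), and the median log2 difference was 0.08. Pdk1, a kinase that inhibits pyruvate dehydrogenase, was at 111, 113 and 108 CPM against 134, 134 and 138 CPM (log2 0.29, SE 0.07). Hk1, a hexokinase, was at 116, 116 and 124 CPM against 142, 147 and 151 CPM (log2 0.30, SE 0.07). Both groups were tight, and the edgeR adjusted p was 0.486 for each. Slc16a3, the lactate exporter MCT4, differed by 0.35 (SE 0.10), Pgam1, phosphoglycerate mutase, by 0.25 (SE 0.07), Ldha, lactate dehydrogenase, by 0.30 (SE 0.09) and Eno1, enolase, by 0.38 (SE 0.14). With a sample left out the Eno1 difference ran from 0.23 to 0.46.

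The rest of the pathway did not separate. Slc2a1, the main glucose transporter of proliferating cells, was at 281, 279 and 292 CPM against 283, 295 and 298 CPM, a log2 difference of 0.04 (95% interval -0.13 to 0.21). Over the alternative analyses this difference ran from 0.02 to 0.24, and with a sample left out it reached 0.06. Pkm, pyruvate kinase, ran from 1995 to 2085 CPM against 1882 to 2098 CPM (log2 -0.03, interval -0.22 to 0.15), and its sign turned under total-count and TPM scaling. Gapdh ran from 2965 to 3502 CPM against 2363 to 3669 CPM (log2 -0.01, interval -0.39 to 0.36), and its sign turned under total-count and TPM scaling and, to 0.15, when Ad-hHIF1 replicate 3, which held the lowest value, was left out. The glycolysis median depended on single samples: it was 0.13 without Ad-hHIF1 replicate 3 and 0.03 without Ad-hHIF1 replicate 4.

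All 13 tested genes of glycogen metabolism had positive log2 differences, beside 50.2% of all genes, the lowest at 0.01. However, 10 of 13 did with sample quality weights and 11 without Ad-hHIF1 replicate 4. In limma-voom, among protein-coding genes alone, without Ad-GFP replicate 3 and over 9 samples without Ad-hHIF1 replicate 3, 12 of 13 did. Without Ad-GFP replicate 4, and likewise without Ad-hHIF1 replicate 3, 12 of 14 did, and without the count filter 14 of 15. In the main fit, 5 of the 13 (38.5%, beside 8.37% of all genes) lay above in every sample and 0 (beside 8.88%) below, and the median was 0.15. Ppp1r3b and Ppp1r3c both bring protein phosphatase 1 to glycogen and favour its synthesis. Ppp1r3b was at 12.3, 11.9 and 12.6 CPM against 16.2, 18.6 and 16.3 CPM (log2 0.47, SE 0.10, edgeR adjusted p = 0.486). Ppp1r3c was close to the detection limit, at 0.34, 0.24 and 0.14 CPM against 1.13, 0.83 and 1.78 CPM (log2 2.33, SE 0.53, edgeR adjusted p = 0.486). Gbe1, the branching enzyme, and Stbd1, a glycogen-binding protein, differed by 0.31 (SE 0.08) and 0.32 (SE 0.09), and Pgm2, a phosphoglucomutase, by 0.16 (SE 0.08).

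Genes of the unfolded protein and amino acid stress responses leaned upward as well. Of 31 tested, 15 (48.4%, beside 8.37% of all genes) lay above and 2 (6.45%, beside 8.88%) below, with 12 higher and 1 lower at an unadjusted p below 0.05 (all genes 4.06% and 4.53%) and a median log2 difference of 0.16. The leading members, beside Atf3 and Sdf2l1, were chaperones of the endoplasmic reticulum. Hspa5, the chaperone BiP, was at 2249, 2230 and 2048 CPM against 2727, 2716 and 2934 CPM (log2 0.36, SE 0.08, edgeR adjusted p = 0.486). Hsp90b1, the chaperone GRP94, was at 955, 976 and 877 CPM against 1232, 1344 and 1256 CPM (log2 0.45, SE 0.08, edgeR adjusted p = 0.486). Pdia6, a protein disulfide isomerase, differed by 0.39 (SE 0.09).

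Values of single regulators of these responses follow. Ddit3, the stress factor CHOP, was at 148, 149 and 144 CPM against 163, 158 and 184 CPM (log2 0.19, SE 0.08, edgeR adjusted p = 0.581). Ern1, the stress sensor IRE1, lay below, at 56.9, 58.7 and 58.3 CPM against 55.1, 48.6 and 50.9 CPM (log2 -0.17, SE 0.07). Slc7a5, a transporter of large neutral amino acids, was the other member below (log2 -0.16, SE 0.08, and -0.21 to -0.08 with a sample left out). The list median without Ad-hHIF1 replicate 3 was 0.17.

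A list of NRF2 targets and other antioxidant genes leaned the same way. Of 25 tested, 8 (32%, beside 8.37% of all genes) lay above and 2 (8.0%, beside 8.88%) below, 7 were higher at an unadjusted p below 0.05 and 0 lower (all genes 4.06% and 4.53%), and the median was 0.13. Hmox1 led. Txnrd1, thioredoxin reductase, was at 64.0, 62.2 and 62.5 CPM against 78.4, 83.1 and 77.2 CPM (log2 0.34, SE 0.07, edgeR adjusted p = 0.486). Sod1, the cytosolic superoxide dismutase, was at 83.0, 87.7 and 75.2 CPM against 98.7, 112 and 107 CPM (log2 0.37, SE 0.09), and Gclc, which makes the precursor of glutathione, differed by 0.28 (SE 0.08). The 2 members below were both glutathione peroxidases, Gpx1 (log2 -0.18, SE 0.08) and Gpx4 (log2 -0.17, SE 0.08). Gpx1 and Slc7a5 turned positive on the TPM scale, with values up to 0.01 and 0.08.

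Genes of fatty acid oxidation and targets of the PPAR receptors had a median log2 difference of 0.18, and 0.23 without Ad-hHIF1 replicate 3. Of 24 tested, 9 (37.5%, beside 8.37% of all genes) lay above and 1 (4.17%, beside 8.88%) below, and 7 were higher at an unadjusted p below 0.05 with 0 lower (all genes 4.06% and 4.53%). Acadl and Acadm, acyl-CoA dehydrogenases of long and medium chains, were at 27.9, 28.1 and 28.6 CPM against 32.94, 34.98 and 36.64 CPM, and at 32.1, 35.8 and 28.4 CPM against 37.0, 48.2 and 43.6 CPM. Their log2 differences were 0.31 (SE 0.07) and 0.42 (SE 0.12), with edgeR adjusted p of 0.486 and 0.491. Acot1, an acyl-CoA thioesterase, was at 2.59, 2.24 and 2.38 CPM against 3.82, 4.39 and 3.87 CPM (log2 0.75, SE 0.20). Plin2, the coat protein of lipid droplets, was at 621, 612 and 552 CPM against 657, 634 and 710 CPM (log2 0.17, SE 0.09). The member that lay below was Pparg itself, at 38.5, 40.7 and 46.4 CPM against 34.46, 37.48 and 37.98 CPM (log2 -0.19, SE 0.09, and -0.25 to -0.11 with a sample left out).

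Immediate early genes, the first to respond to growth factors and stress, had 8 of 24 members (33.3%, beside 8.37% of all genes) above and 0 below, with a median of 0.12 that became 0.24 without Ad-hHIF1 replicate 3 and 0.04 without Ad-hHIF1 replicate 4. Of the members that lay above, Atf3 had the smallest p. Ier2 differed by 0.28 (SE 0.07), Dusp6, a phosphatase of ERK, by 0.24 (SE 0.07) and Ier3 by 0.33 (SE 0.09). Egr1 was at 18.3, 20.5 and 25.0 CPM against 26.6, 30.9 and 27.7 CPM (log2 0.42, SE 0.12, edgeR adjusted p = 0.491). The highest estimate of the list was that of Egr2, a related factor, at 0.83 (SE 1.01), and 0.17 to 1.36 with a sample left out. Egr2 was at 0.55, 0.68 and 0 CPM against 0.77, 0.17 and 1.32 CPM, with overlapping groups. Fetal-like genes of the regenerating epithelium had 6 of 17 above (35.3%) and 1 below (5.88%, beside 8.88% of all genes) and a median of 0.08, which was 0.0043 without Ad-GFP replicate 4, 0.12 without Ad-GFP replicate 3, 0.04 without Ad-hHIF1 replicate 4, 0.16 with total counts and 0.26 or 0.28 on the TPM scale, where all genes had 0.07 or 0.16. In that list Sprr1a was followed by the epidermal growth factor receptor ligands Areg (log2 0.33, SE 0.08) and Ereg (log2 0.44, SE 0.15) and by the cytokine Il33 (log2 0.27, SE 0.08). Targets of p53 had 5 of 25 above (20%), 1 below (4.0%) and a median of 0.0075, which ran from -0.0031 (without Ad-GFP replicate 4) to 0.0254 (without Ad-hHIF1 replicate 3) with a sample left out and was negative among protein-coding genes alone (-0.0103). With total counts it was 0.08 and on the TPM scale 0.09 or 0.17, each close to the median of all genes on that scale. The p53 list was led, in order of p, by the cell cycle inhibitor Cdkn1a at 27.2, 27.1 and 31.9 CPM against 36.4, 38.2 and 39.5 CPM (log2 0.41, SE 0.09) and by Phlda3 (log2 0.43, SE 0.12) and Sesn2, a stress-induced sestrin (log2 0.24, SE 0.08). Collagen-modifying and matrix genes had 6 of 29 above (20.7%, beside 8.37% of all genes) and 4 below (13.8%, beside 8.88%) and a median of 0.05, which was 0.02 without Ad-GFP replicate 3 and 0.03 without Ad-GFP replicate 4. P4hb, protein disulfide isomerase and a subunit of the collagen prolyl hydroxylase, had the highest estimate, 0.30 on the log2 scale (SE 0.08), and Loxl1, a lysyl oxidase, the lowest, at -0.67 (SE 0.60), with overlapping groups below 1 CPM.

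Ribosomal protein genes lay lower, unlike the lists above. Of 49 tested, 20 (40.8%, beside 8.88% of all genes) lay below in every sample and 1, Rpl7, above, 20 were lower at an unadjusted p below 0.05 with 0 higher (all genes 4.53% and 4.06%), and the median log2 difference was -0.17, which turned to 0.02 on the TPM scale, where the median of all genes was 0.07 or 0.16. Rps24 was at 1400, 1400 and 1375 CPM against 1065, 1043 and 1147 CPM (log2 -0.36, SE 0.08, edgeR adjusted p = 0.486), a difference that turned to 0.01 on the TPM scale. Rpl38 was at 199.6, 175 and 167 CPM against 136, 135 and 142 CPM (log2 -0.39, SE 0.09, edgeR adjusted p = 0.486). For both genes every control lay above every Ad-hHIF1 sample. Rps25 and Rpl34 differed by -0.37 (SE 0.09) and -0.47 (SE 0.13), and Rpsa, one of the most abundant members, by -0.19 (SE 0.08). Without Ad-hHIF1 replicate 3, which had the lowest list median (-0.30 against -0.18 and -0.09 in replicates 1 and 4), 13 members were lower at an unadjusted p below 0.05 (beside 589 of all 15838 genes tested in that fit) and the median was -0.15. Genes of this family have many near-identical pseudogene copies, which can make their counts uncertain, and the part of shared reads here was not tested. Their median effective length of 608 bases was short beside 2384 for all protein-coding genes.

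Respiratory chain genes were short as well (median effective length 603 bases). Of 60 tested, 7 (11.7%, beside 8.37%) lay above and 7 (11.7%, beside 8.88%) below, with 0 higher and 8 lower at an unadjusted p below 0.05 (all genes 4.06% and 4.53%) and a median of -0.07 (-0.03 without Ad-GFP replicate 1, -0.02 without Ad-hHIF1 replicate 3 and -0.12 without Ad-hHIF1 replicate 4), which turned to 0.11 or 0.12 on the TPM scale, 0.02 with total counts and 0.01 over 9 samples without Ad-hHIF1 replicate 3. The median of all genes was 0.07 or 0.16 on the TPM scale, 0.08 with total counts and 0.02 in that 9-sample fit. The list therefore lay above all genes only on log2(TPM + 1). Uqcrh, a subunit of complex III, was at 80.4, 83.9 and 84.0 CPM against 68.4, 60.9 and 69.7 CPM (log2 -0.32, SE 0.08), and Cox7b, Cox7a2 and Atp5h differed by -0.41 (SE 0.10), -0.33 (SE 0.10) and -0.36 (SE 0.11), with edgeR adjusted p between 0.486 and 0.501.

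Lists for crypt identity, growth and antiviral defence had medians between -0.06 and 0.07. The proliferation median of 0.06 was 0.04 without Ad-hHIF1 replicate 3 and 0.02 without Ad-hHIF1 replicate 4. With total counts it was 0.15, and on the TPM scale 0.08 or 0.20. The stem cell median of -0.06 was -0.02 without Ad-hHIF1 replicate 3. Beside 8.37% of all genes above and 8.88% below, Wnt and Notch signalling had 1 of 23 above (4.35%) and 5 below (21.7%), the intestinal stem cell list 1 of 16 above (6.25%) and 2 below (12.5%), proliferation 2 of 27 above (7.41%) and 0 below, and interferon and antiviral genes 4 of 26 above (15.4%) and 0 below. Within them, Rnf43, the ubiquitin ligase that removes Wnt receptors and is itself a Wnt target, was at 4.35, 5.27 and 5.10 CPM against 3.09, 3.21 and 2.64 CPM (log2 -0.72, SE 0.19, edgeR adjusted p = 0.490). Notch2, a Notch receptor, was at 124, 118 and 131 CPM against 111, 95.5 and 107 CPM (log2 -0.25, SE 0.09), and Myc at 141, 136 and 141 CPM against 126, 126 and 131 CPM (log2 -0.12, interval -0.28 to 0.04, turning to 0.11 or 0.12 on the TPM scale).

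**Figure D4:**
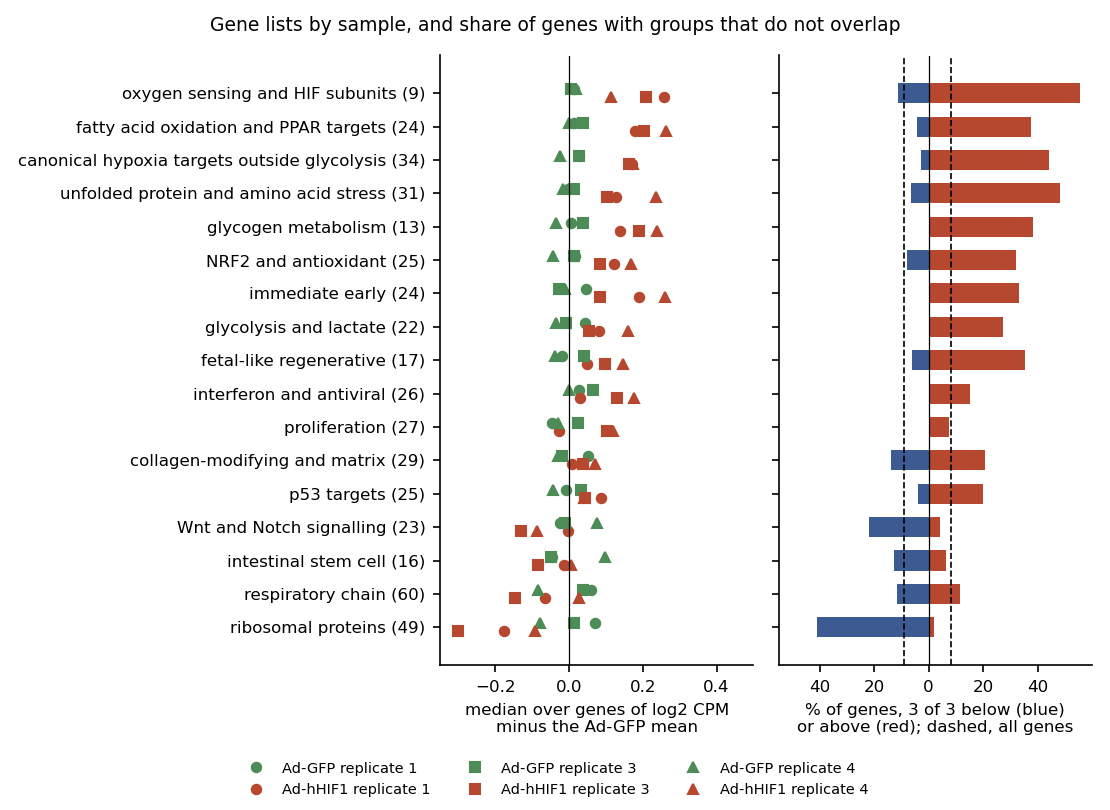
Left, the median over each list's tested genes (number in brackets) of log2 CPM minus the Ad-GFP mean, 1 symbol a sample, green for Ad-GFP and red for Ad-hHIF1. Right, the share of genes with all 3 Ad-hHIF1 samples below (blue) or above (red) all controls, with dashed lines at 8.88% and 8.37% for all genes. Oxygen sensing, fatty acid oxidation, hypoxia, unfolded protein, glycogen, NRF2, immediate early, glycolysis, fetal-like and p53 lists have all 3 Ad-hHIF1 symbols to the right of the controls, and ribosomal proteins have them to the left.

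The study names 17 genes as shared by HIF1 and HIF2, chosen on these samples, so their direction is not independent evidence. Of the 15 tested, 5 (33.3%, beside 8.37% of all genes) lay above and 8 (53.3%, beside 8.88%) below, and most were near the detection limit. Mical2, which the study also lists as raised by both HIFs, was not among the 5 above. Apart from Nos2 and Ppp1r3c, Rasgrf1, a guanine nucleotide exchange factor for Ras, was at 0.46, 0.45 and 0.57 CPM against 1.36, 2.05 and 1.46 CPM (log2 1.71, SE 0.39, edgeR adjusted p = 0.486), Nanp, a phosphatase of sialic acid synthesis, at 0.44, 1.09 and 0 CPM against 2.21, 3.46 and 1.33 CPM, and Klhl3, a cullin 3 adaptor, at 0.16, 0.08 and 0.48 CPM against 0.80, 0.54 and 0.73 CPM. The 8 below all had means under 2 CPM in the controls, and 4 of them are predicted genes. Of 24 genes the study names under HIF2, also on these samples, 8 (33.3%) lay above and 2 (8.33%) below under Ad-hHIF1, beside 8.37% and 8.88% of all genes, with a median log2 difference of 0.21. Ptges, which makes prostaglandin E2, was at 47.1, 47.4 and 39.0 CPM against 56.7, 56.7 and 59.4 CPM (log2 0.37, SE 0.09, edgeR adjusted p = 0.486). Wnt5a, a ligand of non-canonical Wnt signalling, was not separated: it was at 1.15, 1.11 and 0.95 CPM against 1.49, 0.67 and 1.05 CPM, a log2 difference of 0.01 (95% interval -0.94 to 0.96) whose sign turned on the TPM scale.

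Set side by side in the 9-sample fit, Ad-hHIF2 differed from Ad-GFP in 3907 of 15556 genes (25.1%), beside 7 for Ad-hHIF1. Both comparisons share the Ad-GFP samples, so a difference is tested only by contrasting the HIFs with each other, which called 4008 of 15556 genes (25.8%), 2137 higher (13.7%) and 1871 lower (12%) with HIF2. Ad-hHIF2 replicate 1 stood apart in its group. Protein-coding genes took 59.2% of its counts, against 45.6% and 46.8% in Ad-hHIF2 replicates 3 and 4. The part of this in the numbers of genes called was not tested. Nos2 was 1.17 above Ad-GFP on the log2 scale with HIF1 and 4.43 with HIF2, a difference between the HIFs of 3.26 (SE 0.11, edgeR adjusted p = 5.38e-08). Kctd11 was 0.78 and 3.10 above (difference 2.32, SE 0.08), Selenbp1 0.73 and 2.55 (difference 1.82, SE 0.09) and Arhgap29 0.50 and 2.17 (difference 1.67, SE 0.07). For these 4 genes both HIFs gave higher levels and HIF2 the larger rise. Since the genes were chosen for their Ad-hHIF1 values, these sizes describe them and carry no further weight.

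For Atf3 and Hmox1 the HIF1 and HIF2 estimates had opposite signs. Atf3 was 0.70 above Ad-GFP with HIF1 and -1.44 from it with HIF2 (difference -2.13, SE 0.08, edgeR adjusted p = 5.99e-08). Hmox1 was 0.59 above with HIF1 and -2.00 with HIF2 (difference -2.58, SE 0.09, edgeR adjusted p = 6.4e-08). Sprr1a was 1.19 above with HIF1 and 0.10 with HIF2 (difference -1.10, SE 0.15, edgeR adjusted p = 4.9e-04). Neat1 was lower with either HIF, -0.58 and -0.71, and the difference of -0.13 (SE 0.08) did not pass the test. These genes too were chosen for their Ad-hHIF1 values, which enter the contrast, so the tests are not independent of that choice.

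**Figure D5:**
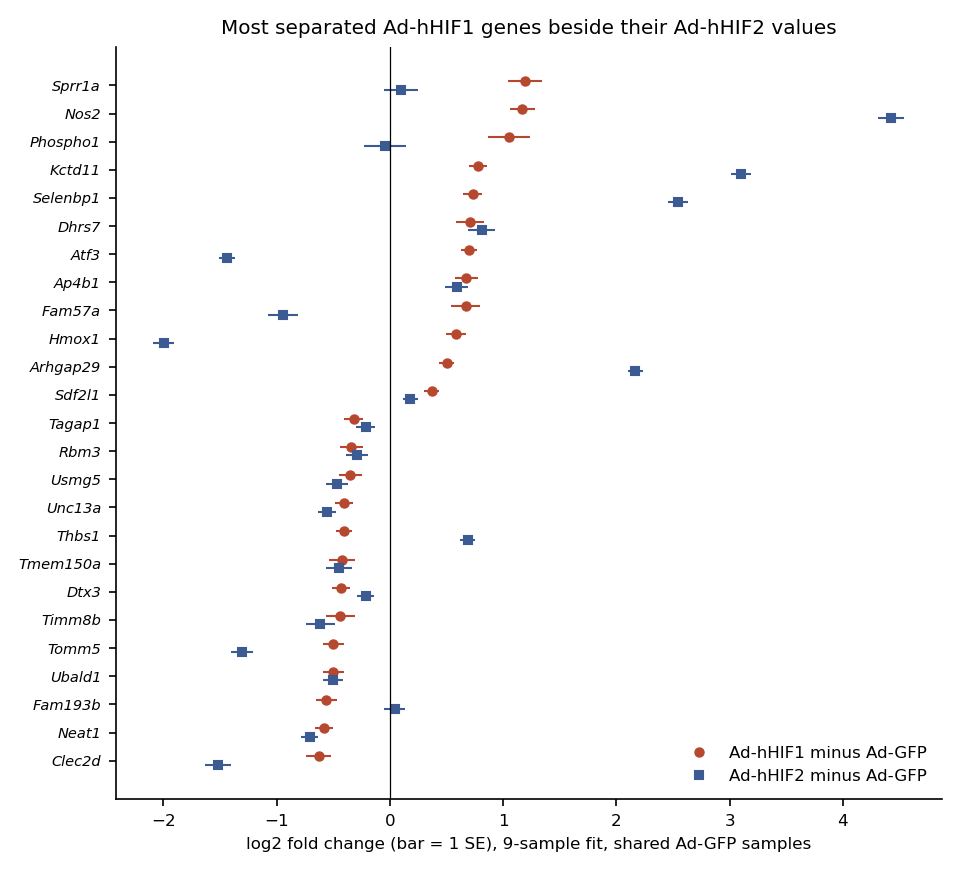
Log2 fold change against the shared Ad-GFP samples (± 1 SE, 9-sample fit) of the 24 most separated Ad-hHIF1 genes and Neat1, red circles for Ad-hHIF1 and blue squares for Ad-hHIF2. Nos2, Kctd11, Selenbp1 and Arhgap29 reach 2.17 to 4.43 with HIF2, while Hmox1, Atf3, Fam57a and Thbs1 have their symbols on opposite sides of 0.

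The lists also differed between the HIFs. In glycolysis, 13 of 22 genes were lower with HIF2 than with HIF1 and 2 higher, Pdk1 by -0.94 among the lower (SE 0.06, edgeR adjusted p = 3.59e-06). In the unfolded protein list 14 of 31 were lower and 3 higher, in the NRF2 list 12 of 25 lower and 4 higher, in the fetal-like list 11 of 17 lower and 2 higher, and among ribosomal proteins 22 of 49 lower and 0 higher, each beside 12% lower and 13.7% higher of all genes. Other lists went the opposite way. Collagen-modifying and matrix genes had 16 of 29 higher and 2 lower with HIF2, cholesterol and fatty acid synthesis 9 of 30 higher and 2 lower, and oxygen sensing 5 of 9 higher and 2 lower. The oxygen sensing list includes Hif1a and Epas1, whose human forms the vectors carry, so its counts are not independent of the design. Canonical hypoxia targets outside glycolysis were divided, with 15 of 34 higher and 14 lower with HIF2: Angptl4 was 2.81 higher and Higd1a lower, at -1.79 on the log2 scale.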

How the data were processed

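RNA-seq libraries of 6 organoid samples (3 Ad-hHIF1, 3 Ad-GFP) were analysed, with 3 Ad-hHIF2 samples in fits over all 9. After dropping low-quality reads, the authors ran RSEM and deposited expected counts and TPM for each gene and sample. Aligner, genome build, annotation, strandedness and versions are not given in the sources used here. The deposited expected counts are estimates, of which 85.7% were whole within 0.005, and were rounded. Gene types and positions came from GENCODE M21 (GRCm38), which matched 46005 of the 46517 gene IDs. The deposited TPM values entered only as log2(TPM + 1) and log2(TPM + 0.1) in limma.

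Genes passing filterByExpr were scaled by TMM and tested with edgeR 4.0.16 (quasi-likelihood, no block) in R 4.3.3, with Benjamini-Hochberg adjustment over all 15233 genes tested. The SE is the absolute log2 fold change over the square root of F. Alternatives included DESeq2 1.42.0, limma 3.58.1 (voom), other filters and scalings, and leaving out each sample. The fits were tested on simulated data. The median 95% half-width was 0.40 on the log2 scale at total counts of 21722618 to 39763093 per sample, and intervals cover the spread between samples.

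Samples were grouped by the labelled transduction. Per direction, the 12 protein-coding genes with the smallest p among those with non-overlapping groups and a mean of at least 2 CPM were named, and per list up to 4 members by p and 2 by level, Hif1a, Epas1, Arnt, the genes of the study's own lists and those called over 9 samples. One member of the hypoxia list is counted but not reported here by name. The members and lists were chosen with earlier results of these data known. Higd1a, Cited2, Car9, Slc2a1, Ldha, Eno1, Pdia6, Ddit3, Ern1, Slc7a5, Pparg, Gpx1, Egr2, Loxl1 and Rpl7 were chosen after their values were seen. Promoter sequences are from RefSeq (GRCm38.p6).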

Additional observations from a re-analysis of the deposited data

How the results depend on the processing

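Of 99 named genes, 88 had the same direction under each of the 23 alternatives in which they were tested (fewer than 23 for some genes of low level and for Neat1) and 11 reversed under at least 1, 5 of them with a sample left out. The cause was not tested for any of these changes. At the adjusted threshold the unfiltered edgeR test called 384 genes, DESeq2 144, limma-voom 5, limma-voom with quality weights 12, the robust edgeR fit 7, limma on log2(TPM + 0.1) 2, the 9-sample fit 7 (4 without Ad-hHIF1 replicate 3) and protein-coding genes alone 6, while each fit without a sample called 0 (unadjusted counts 930 to 1406). Unadjusted counts were 2181 without the filter and 2228 and 2216 on log2(TPM + 1) and log2(TPM + 0.1). Non-overlapping genes numbered 3977 to 4473 with a sample left out and 4417 in the 9-sample fit without Ad-hHIF1 replicate 3, where fewer samples have to be apart.

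Deviations of same-numbered samples correlated at 0.12, 0.04 and -0.09, and those of differently numbered samples at -0.23 to 0.20. So few pairs cannot decide whether the replicate numbers pair the samples. With the replicate block 0 genes passed the adjusted threshold and 1111 the unadjusted one, and 2, Sprr1a and Nos2, passed with the block over 9 samples. Among the 99 genes, many of them chosen on Ad-hHIF1 values that enter this contrast, 66 differed between the HIFs (all genes 25.8%), 64 with the block and 59 to 63 with a sample left out.

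The hypoxia median was 0.2402 with total counts, 0.1284 without the filter, 0.2097 and 0.2640 on the TPM scales and 0.2036 over 9 samples without Ad-hHIF1 replicate 3 (0.0985 to 0.2047 with a sample left out). The glycolysis median was in the same order 0.1657 with total counts, 0.2508 and 0.2803 on the TPM scales, 0.1597 over 9 samples without that replicate, and 0.0286 to 0.1312 with a sample left out. Medians turned positive on the TPM scales for ribosomal proteins (0.0168 and 0.0169) and the respiratory chain (0.1090 and 0.1242), the latter also being 0.0153 with total counts and 0.0100 over 9 samples without Ad-hHIF1 replicate 3. All genes had medians of 0.0705 and 0.1582 on the TPM scales, 0.0816 with total counts and 0.0176 in that 9-sample fit. Beside these, ribosomal proteins stayed lower, and the respiratory chain was higher only on log2(TPM + 1). Hif1a passed the adjusted threshold without the filter (0.4915), in DESeq2 (0.4954) and with quality weights (0.5466).

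Single genes reversed as follows, on log2(TPM + 1) and log2(TPM + 0.1): Arnt 0.0736 and 0.1062, Vegfa 0.0451 and 0.0457, Car9 0.0082 and 0.0974, Pkm 0.1510 and 0.1521, Gapdh 0.0836 and 0.0837, Slc7a5 0.0543 and 0.0758, Gpx1 0.0123 and 0.0128, Rps24 0.0101 and 0.0100, Myc 0.1055 and 0.1158, and Wnt5a -0.0439 and -0.2535. With total counts Arnt was 0.0109, Pkm 0.0477 and Gapdh 0.0789. With quality weights Car9 was 0.1944 and Gapdh 0.0844. Over 9 samples without Ad-hHIF1 replicate 3, Epas1 was -0.0607, Car9 0.0836, Pkm 0.0316 and Gapdh 0.1819. Wnt5a was -0.0164 in limma-voom, -0.0522 with the replicate block and -0.0043 among protein-coding genes. With a sample left out the ranges were -0.1094 to 0.4232 for Epas1, -0.3159 to 0.0934 for Car9, -0.0790 to 0.0030 for Pkm, -0.1468 to 0.1534 for Gapdh and -0.3070 to 0.2439 for Wnt5a.

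Among the classes of mean CPM, intervals were widest for the genes below 1 CPM, whose median half-width was 1.55 on the log2 scale. Of 2880 such genes 11 had an interval within 2-fold. The effect of depth was not tested.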
